A study of Mus musculus with 7 samples.

Results

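In mouse liver, distal regions were taken at which the retinoic acid receptors RARα and RARβ and the retinoid X receptor RXRα were all called by ChIP-seq, both in control animals and in animals fed retinoic acid (RA). Peaks of the 6 deposited lists that overlapped or touched were merged into regions. A region was kept when it held a peak of every list, when its midpoint lay more than 10 kb from every protein-coding gene start, and when none of its peaks had a score of 3100 or more. This gave 2497 distal six-list regions of 87787 merged regions. They were chosen by their calls and scores, so the counts and ranks given for them describe the selection and were not tested. The livers came from wild type C57BL/6 males, 3 months old, given a normal diet (control) or an RA diet, for 1 day as labelled. The methods of the study give a longer RA feeding for its treated mice in general. They repeat it for the expression measurements and do not name ChIP-seq, so which duration applies to these livers is unknown. There was 1 library per receptor and diet, and the labels do not say how many animals it holds, so no value has a replicate check. In whole liver, fewer cells with a bound site and less binding per cell cannot be told apart.

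RARs are nuclear receptors that bind RA and act on DNA as heterodimers with RXRα. RXRα is also the partner of other lipid-sensing receptors of the liver, among them PPARα, LXR, FXR and PXR, so an RXRα site need not be an RAR site. Such heterodimers bind paired half-sites of the AGGTCA type, whose spacing differs between partners, and much of their binding in hepatocytes lies in enhancers far from gene starts.

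The 6 lists held 245004 peaks, from 14968 (RARβ, control) to 61128 (RXRα, control), called from single-end reads of 35 bp. Read totals per library were not in the files, so the depth behind each list is unknown. The caller's score rises as its p-value falls and was not normalized between libraries. Ranks were therefore used, as the percentile of a region's best peak among all peaks of its own list. Shares are given with Wilson 95% intervals, which cover counting error over regions only.

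Sequence on the files' build was at hand for promoter windows of annotated genes (RefSeq, GRCm38.p6). In 123 distal six-list regions a whole window of 300 bp around the start of a long noncoding RNA (lncRNA) was read. Only 1 window was used per region, the one with its start nearest the mean midpoint of the region's best peaks. Of these 123 windows, 1 held a direct repeat. A direct repeat was counted where a half-site was followed by another on the same strand after 0 to 8 bases. Half-sites were AGGTCA and its variants with G first (GGGTCA), T in place of the G before TCA (AGTTCA) or both changes (GGTTCA), and both strands were searched. That window starts Gm41874, at chr19:57404215-57404514 on the + strand, with the repeat and its 6 bases between in capitals. It is shown because it is the only such repeat found in the 123 windows read.
Gm41874: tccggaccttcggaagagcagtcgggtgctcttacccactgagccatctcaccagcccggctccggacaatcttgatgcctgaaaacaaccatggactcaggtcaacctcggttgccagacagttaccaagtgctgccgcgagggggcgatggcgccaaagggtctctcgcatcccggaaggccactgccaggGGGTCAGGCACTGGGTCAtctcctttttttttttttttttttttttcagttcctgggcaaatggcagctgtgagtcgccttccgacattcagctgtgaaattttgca
The 3 windows of snoRNA host genes (Snhg) with the highest mean rank are shown as examples that hold no direct repeat. Their positions are chr3:123508287-123508586 (- strand), chr9:88522848-88523147 (- strand) and chr11:116671410-116671709 (+ strand). Capitals mark GGGCGG on either strand, the binding letters of SP and KLF factors, with 2 overlapping matches in Snhg5 and no match in Snhg16.
Snhg8: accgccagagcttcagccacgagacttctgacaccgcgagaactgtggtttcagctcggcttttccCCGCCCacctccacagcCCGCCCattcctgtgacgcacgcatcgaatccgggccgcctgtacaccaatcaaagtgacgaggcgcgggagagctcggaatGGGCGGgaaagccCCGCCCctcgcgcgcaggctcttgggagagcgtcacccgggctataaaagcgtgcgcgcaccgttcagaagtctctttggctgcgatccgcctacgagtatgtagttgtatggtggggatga
Snhg5: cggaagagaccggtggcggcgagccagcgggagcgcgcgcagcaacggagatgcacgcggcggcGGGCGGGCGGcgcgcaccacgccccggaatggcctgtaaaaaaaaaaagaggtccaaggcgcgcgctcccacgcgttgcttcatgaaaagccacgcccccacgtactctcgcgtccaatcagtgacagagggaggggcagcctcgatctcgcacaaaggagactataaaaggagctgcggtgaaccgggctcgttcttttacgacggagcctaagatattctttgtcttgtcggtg
Snhg16: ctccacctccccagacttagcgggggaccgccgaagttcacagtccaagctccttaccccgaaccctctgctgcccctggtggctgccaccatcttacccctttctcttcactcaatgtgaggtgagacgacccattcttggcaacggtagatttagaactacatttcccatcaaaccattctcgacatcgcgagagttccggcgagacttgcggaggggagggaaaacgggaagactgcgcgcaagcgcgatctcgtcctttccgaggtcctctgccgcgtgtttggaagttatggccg
The window of C920006O11Rik, at chr9:78175664-78175963 on the + strand, lies in the region that also holds Rn7sk, the gene of the 7SK small nuclear RNA, and is marked in the same way.
C920006O11Rik: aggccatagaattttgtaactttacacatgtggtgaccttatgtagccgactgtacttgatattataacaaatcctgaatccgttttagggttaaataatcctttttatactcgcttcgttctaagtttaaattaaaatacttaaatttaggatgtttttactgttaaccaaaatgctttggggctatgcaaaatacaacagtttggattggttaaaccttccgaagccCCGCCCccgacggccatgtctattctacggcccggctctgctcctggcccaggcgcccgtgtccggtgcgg

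Over the 123 windows, GGGCGG was present in 46 (37.4%, interval 29.4 to 46.2), against 70 of 426 windows in distal regions called in 1 to 5 lists (16.4%) and 473 of 6157 distal lncRNA windows that touched no region (7.68%). The ETS factor motif CCGGAAGT was present in 8 of 123 (6.50%), 5 of 426 (1.17%) and 58 of 6157 (0.942%) of the same windows. The direct repeats were found in 1 of 123 (0.813%), 7 of 426 (1.64%) and 110 of 6157 windows (1.79%). The single half-site AGGTCA was found in 30 of 123 (24.4%), 125 of 426 (29.3%) and 1192 of 6157 (19.4%). Of the other motifs searched, those of C/EBP factors (8 of 123, 6.50%) and of HNF4 type (CAAAGTCCA, 3 of 123, 2.44%) followed the order of GGGCGG, with 4.93% and 1.41% in distal regions of 1 to 5 lists and 1.88% and 0.487% in windows touching no region. CTCF motifs did not, with 0.813%, 4.69% and 0.0812%. FOXA motifs were in 10.6%, 13.8% and 11.0%, AP-1 motifs in 7 of 123, 28 of 426 and 431 of 6157, and HNF1 motifs in 0.813%, 2.35% and 0.406%. Most of these shares rest on few windows. The median GC content was 54.3%, 49% and 46.7% in that order, and its part in the GGGCGG share was not tested. These windows are starts of lncRNA genes and stand only for the regions that hold them. No sequence was read for the other regions.

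Regions called in all 6 lists made up 9.76% of merged regions (8565), and distal ones 4.33% of the 57710 distal regions. Being distal was less frequent the more lists called a region. The share of regions farther than 10 kb from a start was 73.6% for regions called in 1 list, 72.2%, 68.8%, 65.3% and 56.2% for those called in 2 to 5 lists, and 29.2% (interval 28.2 to 30.2) for those called in 6. The shortest list set the number of distal six-list regions more than any other, and without it 6044 distal regions were called in the remaining 5 lists. Of the 4667 distal regions called in exactly 5 lists, 3546 were missing the RARβ control list, 619 the RARα control list, 249 and 164 the RA lists of RARβ and RARα, and 47 and 42 the RA and control lists of RXRα. In those 3546 regions the median percentiles were 36.9 and 49.6 for RARα (control, then RA), 52.1 for RARβ under RA and 84.5 and 85.0 for RXRα.

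Merging can chain peaks that do not overlap each other, but here the best peaks of all 6 lists had a base in common in 2273 of 2497 regions (91.0%, interval 89.8 to 92.1). The common part had a median length of 358 bp, in regions with a median width of 1031 bp (range 183 to 9593 bp). Of the regions described singly, those near Palmd, Acsl1 and Bhlhe41, the first near Alb, and those at Malat1, Oip5os1 and Neat1 held no such base, so the peaks compared there may lie at different places of the region. Midpoints of the best peaks of any 2 lists lay a median of 61.5 to 83.5 bp apart. The nearest protein-coding start was at a median distance of 40.5 kb, with quartiles at 20.1 and 93.3 kb. There were 618 regions between 10 and 20 kb of a start, 793 between 20 and 50 kb, 496 between 50 and 100 kb, 322 between 100 and 200 kb, 201 between 200 and 500 kb and 67 beyond 500 kb.

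A smaller share of these regions lay inside genes than of other distal regions. The midpoint was within the span of a protein-coding gene in 1046 of 2497 (41.9%, interval 40.0 to 43.8), against 49.8% of all distal regions and 50.4% of those called in 1 list. This share was 51.9% at 10 to 20 kb from a start, 43.6% at 20 to 50 kb and 2.99% beyond 500 kb. When starts of all annotated genes, noncoding ones included, set the limit of 10 kb, 1682 regions were left and 49.3% of them lay inside a protein-coding gene. The share of other distal regions was not recomputed under that limit, so 49.3% has no matching value beside it. Exons and introns were not separated.

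**Figure D1:**
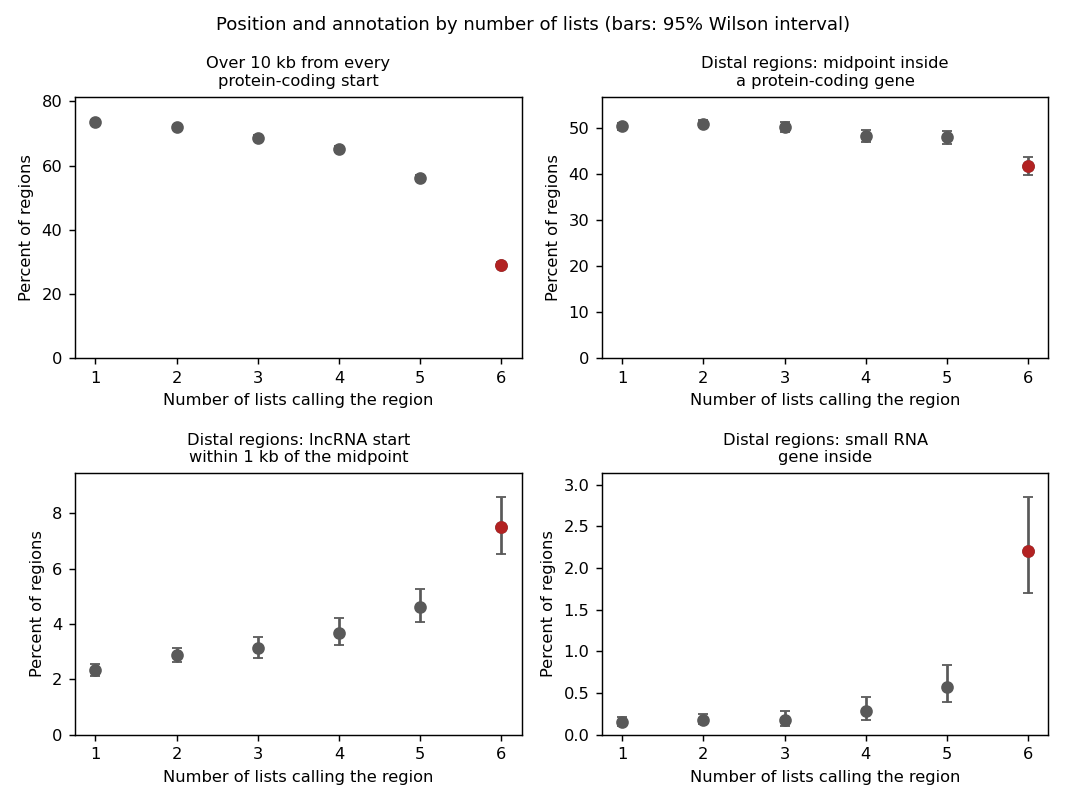
Percent of regions (y axis) by the number of lists that called them (x axis, 1 to 6), for distance over 10 kb from a protein-coding start and, among distal regions, for a midpoint inside a protein-coding gene, a lncRNA start within 1 kb and a small RNA gene inside; bars are Wilson 95% intervals and the six-list regions are in red. The red points are lowest in the upper panels (29.2% and 41.9%) and highest in the lower panels (7.49% and 2.20%).

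The ranks differed by receptor. Under the control diet the median percentile of the distal six-list regions was 89.4 for RXRα, 53.9 for RARα and 48.9 for RARβ, and under RA it was 89.5, 65.1 and 74.4. This order depended on the weak peaks in the lists. With peaks of a score of at least 100 the medians were 77.3 for RXRα, 80.6 for RARα and 75.6 for RARβ under control and 76.0, 85.2 and 83.5 under RA, so that RARα under both diets and RARβ under RA stood above RXRα. With every list at the length of the shortest they were 75.8, 56.8 and 70.0 under control and 77.6, 67.4 and 82.2 under RA, so that RARβ stood above RXRα under RA. The lowest and highest scores were 50.6 and 2899.7 for RXRα, 50.2 and 2728 for RARα and 50 and 2134 for RARβ under the control diet, so the regions spanned nearly the whole range of each list. Six-list regions within 10 kb of a start ranked the other way, with control medians of 59.99 for RXRα, 85.0 for RARα and 69.7 for RARβ. Both RXRα percentiles exceeded all 4 RAR percentiles in 1450 of the 2497 distal regions (58.1%), in 711 of the 6055 start-proximal ones (11.7%) and in 25.3% of both together. The 4 RAR percentiles exceeded both of RXRα in 304 distal (12.2%) and 2254 start-proximal regions (37.2%). When every list was cut to its 14968 highest-scoring peaks, the first share was 29.7% for distal and 9.07% for start-proximal regions. The distal share was the higher one in both settings, and its size depended on list length.

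**Figure D2:**
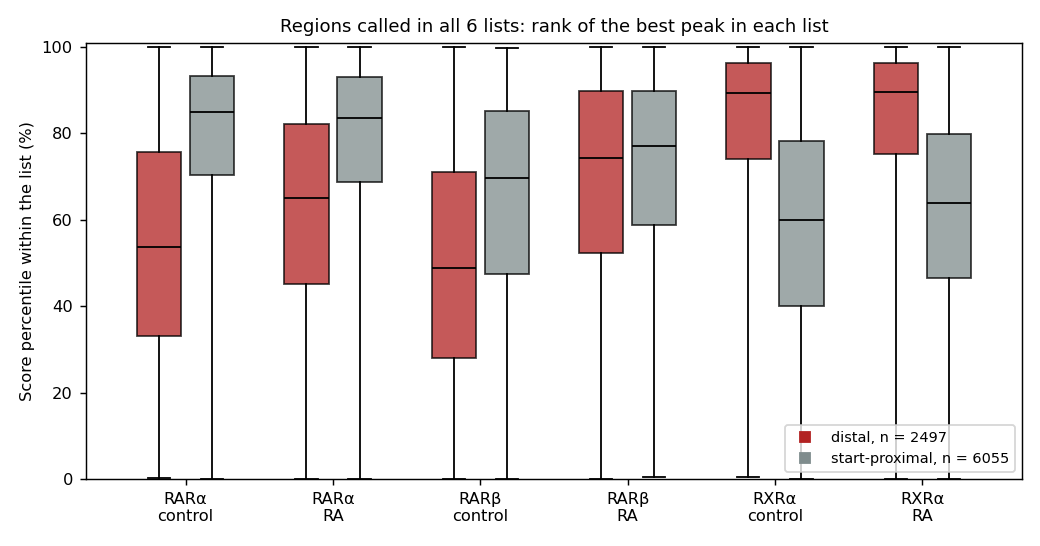
Score percentile within each list (y axis, %) of the 2497 distal and 6055 start-proximal six-list regions, for the 6 lists (x axis); boxes give the quartiles and median, whiskers the lowest and highest region. Distal regions sit lower than start-proximal ones for RARα (53.9 against 85.0, control) and higher for RXRα (89.4 against 59.99).

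Within the distal six-list regions the order of ranks was much alike for RXRα under both diets (Spearman's rho 0.89 across regions) and for RARα (0.74), and less so for RARβ (0.35). RXRα ranks ran weakly against those of RARα under the control diet (-0.21) and weakly with those of RARβ under RA (0.40). Regions are not independent replicates, and each list's ranks share 1 library, so no test was attached.

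From control to RA, the percentile moved by a median of 6.21 points for RARα (quartiles -2.35 and 20.1), 16.5 points for RARβ (-1.44 and 40.1) and 0.0811 points for RXRα (-3.03 and 3.99). It was higher under RA in 1734 distal regions for RARα (69.4%), 1772 for RARβ (71.0%) and 1291 for RXRα (51.7%). Over all six-list regions the shares were 54%, 66% and 56.7%, and over the start-proximal ones 47.7%, 64.0% and 58.8%. The RARβ RA list held 29467 peaks and its control list 14968, and a rank depends on how many weak peaks a list holds. With all lists at 14968 peaks, the distal and start-proximal shares were 61.8% and 42.0% for RARα, 53.6% and 53.0% for RARβ, and 51.1% and 53.6% for RXRα. With only peaks of a score of at least 100, they were 72.2% and 49.8% for RARα and 64.5% and 78.7% for RARβ, so the order of distal and start-proximal regions turned for RARβ and stayed for RARα. Diet and library cannot be told apart, since each diet is 1 library per receptor.

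**Figure D3:**
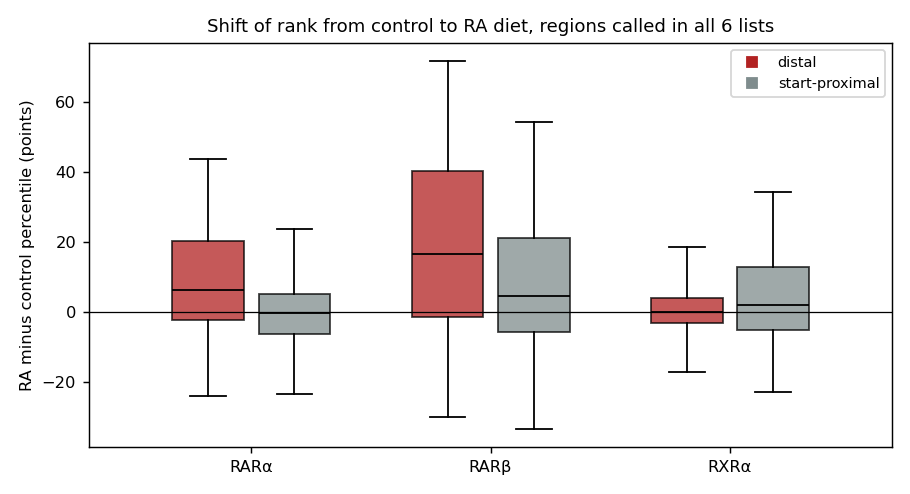
Percentile under RA minus percentile under the control diet (y axis, points) for RARα, RARβ and RXRα (x axis) in distal and start-proximal six-list regions; boxes give quartiles and median, whiskers the 5th and 95th percentiles of regions. The distal median is 6.21 points for RARα and 16.5 for RARβ, and close to 0 for RXRα (0.0811).

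The largest rises of RARβ rank were near Paqr9, Palmd and Ppp1r3a. At chr9:95580701-95581949, 21.7 kb from Paqr9, the scores in control and RA were 143 and 145 for RARα, 50.3 and 391 for RARβ and 1474 and 1712 for RXRα. RARβ thus went from the 0.975 to the 97.7 percentile at a region where RXRα was near the top of both lists. At chr3:117061008-117062307, 92.7 kb from Palmd, the scores were 196 and 259 for RARα, 50.2 and 304 for RARβ and 1673 and 1609 for RXRα. At chr6:14775630-14776802, 20.9 kb from Ppp1r3a, which encodes a glycogen-targeting subunit of protein phosphatase 1, they were 151 and 111 for RARα, 50 and 277 for RARβ and 383 and 630.3 for RXRα. All 3 rises began beside the lowest score of 50 in the RARβ control list.

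The largest falls of RARβ rank were near Hif1an, Bbx and Ddr2. At chr19:44606827-44607469, 44.3 kb from Hif1an, whose product hydroxylates hypoxia-inducible factors, the scores were 189 and 311 for RARα, 243 and 50.1 for RARβ and 460.1 and 459 for RXRα. RARα ranked higher under RA there, and RARβ was at its list's end. At chr16:50414288-50414757, inside Bbx, they were 189 and 407 for RARα, 191 and 51.5 for RARβ and 551 and 371 for RXRα, and at chr1:170037122-170037714, inside Ddr2, a collagen receptor gene, 134 and 358 for RARα, 167 and 56.9 for RARβ and 423 and 304 for RXRα. The region with the largest rise of RARα rank holds the start of Malat1, an abundant nuclear lncRNA, at chr19:5802088-5804221. Its scores were 53.9 and 818 for RARα, 115 and 246 for RARβ and 126 and 173 for RXRα, so RARα went from the 5.62 to the 99.6 percentile, with no base common to the best peaks of the 6 lists. A region at chr16:24120515-24121426, 132 kb from the repressor gene Bcl6, had the largest fall of RARα, with 179 and 54.8 for RARα, 71.8 and 122 for RARβ and 451 and 325 for RXRα. For RXRα the largest rise was 76.6 kb from Gng4 (62.6 to 244) and the largest fall inside Cradd (458 to 87.6).

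Some distal six-list regions lay at starts of noncoding genes, which the rule did not use. A lncRNA start lay within 1 kb of the midpoint in 187 regions (7.49%, interval 6.52 to 8.59), against 3.15% of all distal regions. The share was 2.33%, 2.86%, 3.13%, 3.69% and 4.63% for distal regions called in 1 to 5 lists. For 2767 of the 12727 lncRNA genes the strand was unknown and both ends were counted as starts. Some of the starts counted in all these shares may therefore be the other end of a gene. A small RNA gene (snRNA, snoRNA, tRNA or Y RNA by the annotation) lay inside 55 regions (2.20%, interval 1.70 to 2.86), against 0.298% of all distal regions and 0.148% of those called in 1 list. Regions called in 1 list are narrower (median 371 bp), which lowers the share that can hold a gene. With a window of 500 bp to either side of every midpoint the shares were 2.08% and 0.179%, so the share of six-list regions was also the larger at equal width. Without the RARβ control list, regions with a small RNA gene inside were 1.08% of 6044 regions. The rule placed regions by protein-coding starts only, so these regions are distal to protein-coding genes and not to every gene. Some regions described here by a nearby protein-coding gene also had a lncRNA start within 1 kb. They were those described near Paqr9, Cebpb, Insig1, Per2 and Epcam, and those at chr11:5485086-5486341 (Xbp1) and chr5:90438910-90439844 (Alb).

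The small RNA genes were snRNA genes in 29 regions, tRNA genes in 19, snoRNA genes in 6 and the Y RNA gene Rny1 in 1. The 29 snRNA regions ranked at a median percentile of 99.7 and 99.9 in the RARα lists (control, then RA), 78.2 and 79.8 in the RARβ lists and 71.9 and 70.6 in the RXRα lists. Of the 83 distal six-list regions at or above the 99th percentile of the RARα control list, 20 held an snRNA gene. The 19 tRNA regions did not share this rank, with medians of 66.3 and 65.2 for RARα, 78.7 and 84.1 for RARβ and 69.0 and 72.5 for RXRα. In the 2273 regions with no such annotation the medians were 52.3 for RARα and 90.1 for RXRα under the control diet. Most snRNAs are parts of the spliceosome or of small ribonucleoproteins that process other RNAs, and tRNA genes are read by RNA polymerase III. The classes are those of the annotation, which counts Rn7sk and the U3 genes Rnu3b1 to Rnu3b4 as snRNA genes. Many snRNA genes have near-identical copies, and how the 35 bp reads were placed among them was not tested.

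**Figure D4:**
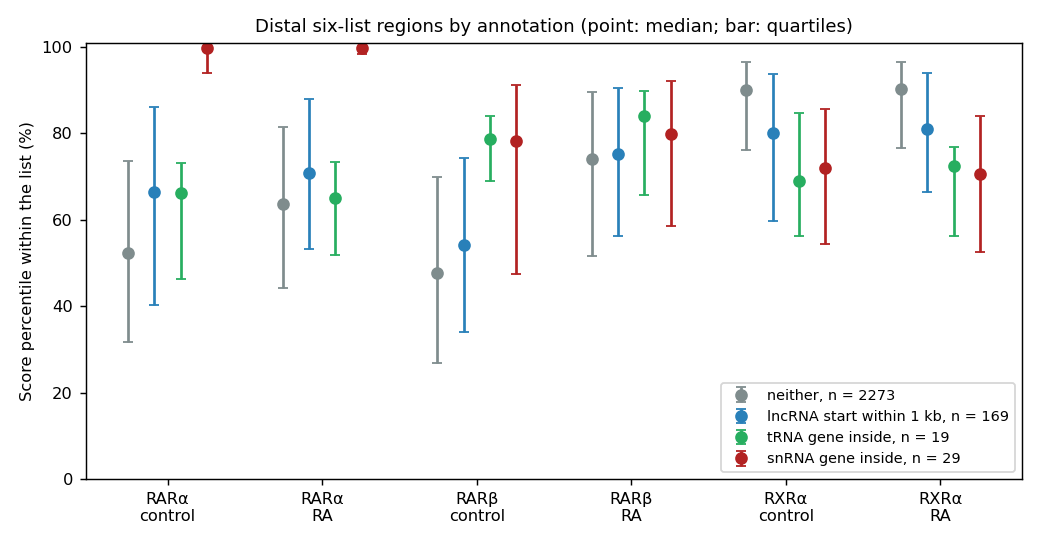
Score percentile within each list (y axis, %) for the 6 lists (x axis) in distal six-list regions with an snRNA gene inside (29), a tRNA gene inside (19), a lncRNA start within 1 kb and no small RNA gene (169) or neither (2273); points are medians and bars quartiles. Regions with an snRNA gene stand at 99.7 and 99.9 for RARα and at 71.9 and 70.6 for RXRα, where regions with neither stand at 90.1 and 90.3.

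The largest snRNA group lay in the span of Tex14 on chromosome 11, a gene known for its role in germ cells, at chr11:87422205-87472053, with 6 regions. Rnu3b1, a gene of the U3 RNA that takes part in ribosomal RNA processing, lay in chr11:87442168-87444072, with scores of 2118 and 2407 for RARα, 244 and 315 for RARβ and 406 and 392 for RXRα. Its copies Rnu3b2, Rnu3b3 and Rnu3b4 each had a region of their own, with RARα control scores of 2012, 1852 and 2001. At Rnu1a1, a U1 gene, in chr11:87422205-87423548, they were 970.3 and 1031 for RARα, 118 and 211 for RARβ and 98.3 and 221 for RXRα. RARα was thus high in both libraries at each of these genes, while RXRα ranged from the 34.4 to the 91.8 percentile under the control diet. Near Eapp, 5 regions at chr12:54709733-54739214 each held an snRNA gene, with RARα control scores from 415 to 1156 and RXRα control scores from 82.4 to 275. At Rn7sk, whose RNA holds back a transcription elongation factor, the scores were 361 and 329.9 for RARα, 131 and 226 for RARβ and 611 and 576 for RXRα. Rnu5g, a U5 gene 12.9 kb from Parp16, had 558 and 592 for RARα, 50.1 and 93.0 for RARβ and 137 and 67.7 for RXRα.

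Hosts of snoRNAs, the guide RNAs of ribosomal RNA modification, were among the lncRNAs. The genes named here were picked after their values were seen. At Snhg8, in chr3:123507921-123509246, the scores were 1121 and 949 for RARα, 282 and 408 for RARβ and 298 and 322 for RXRα. At Snhg5, in chr9:88522490-88523611, they were 527 and 581 for RARα, 174 and 244 for RARβ and 216 and 384 for RXRα. At Snhg16, in chr11:116670981-116672006, they were 356 and 331 for RARα, 247 and 337 for RARβ and 277 and 213 for RXRα. Of the 6 regions at Snhg genes, both RARs ranked above RXRα under both diets in 4, at Snhg8, Snhg5, Snhg16 and Snhg7. At Snhg6 RARβ ranked below RXRα under the control diet (73.6 against 78.8), and at Snhg20 RARβ did so under control (15.8 against 56.1) and both RARs under RA (72.6 and 63.4 against 80.3). Chaserr, a lncRNA beside Chd2, had 637 and 869 for RARα, 339.6 and 792 for RARβ and 124 and 239 for RXRα, and Oip5os1 had 320.1 and 293 for RARα, 270.4 and 452 for RARβ and 69.2 and 92.8 for RXRα. The region at Neat1, the lncRNA that builds paraspeckles, in chr19:5841233-5850825, had 51.7 and 64.4 for RARα, 60.1 and 104 for RARβ and 260.1 and 223 for RXRα. RARα ranked low there under control and RA (2.43 and 14.7 percentile), while RARβ was at the 27.1 and 52.8 percentile. The region of Gm41874, whose window holds the direct repeat shown, had scores of 255 and 211 for RARα, 68.5 and 152 for RARβ and 632 and 628 for RXRα.

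The 12 regions with the highest mean percentile were high in every list, whatever the antibody and diet. Their nearest protein-coding genes were Lrrc4c, Fam172a, Asmt, Nxph1, Kcnh5, Cdk5rap2, Ccnh, Tnc, Pak3, Esp38, Ly6c2 and Mdga2. The first, at chr2:98661963-98663318, lay 2344 kb from Lrrc4c and scored 1504 and 2310.3 for RARα, 2012 and 1799 for RARβ and 2525 and 2296 for RXRα. The region near Kcnh5, at chr12:74803555-74804747, scored 1856 and 1620.4 for RARα, 1774 and 1697 for RARβ and 1623 and 1096 for RXRα. The region at chr17:39842740-39849132 was the widest of these, and scored 2728 and 2989.9 for RARα, 1936 and 2311 for RARβ and 1026 and 851 for RXRα.

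In all, 6 regions were at or above the 99th percentile in each of the 6 lists, and 37 at or above the 90th. The 11 distal six-list regions left out for a score of 3100 or more included one beside the first Lrrc4c region, at chr2:98665900-98667680, with 3099.5 for RARα under control and 3100 in the other lists. The input library was not used here, so the signal at these regions without an antibody was not compared. The 3 regions farthest from a start included the first Lrrc4c region. At chr14:90910975-90911618, 2439.9 kb from Pcdh20, the scores were 606 and 604 for RARα, 481 and 436 for RARβ and 705 and 539.5 for RXRα, and the last, at chr2:98663418-98664306, had 335 and 158 for RARα, 469 and 290.5 for RARβ and 330.0 and 256 for RXRα. Beyond 500 kb the median RARβ control percentile was 86.1, against 48.9 over all distal six-list regions, and that of RXRα was 80.2 against 89.4.

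**Figure D5:**
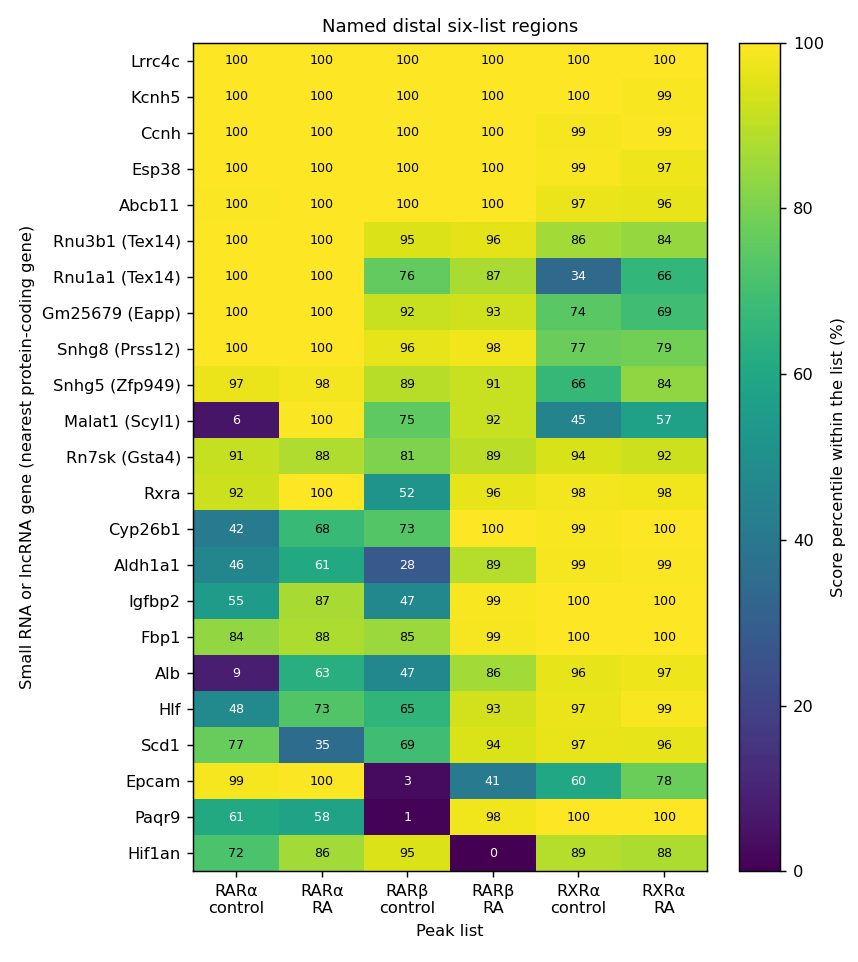
Score percentile (colour and number, %, rounded) of named distal six-list regions (y axis, by small RNA or lncRNA gene and nearest protein-coding gene) in the 6 lists (x axis). The top 5 are near 100 in every list, Rnu3b1, Rnu1a1 and Gm25679 are near 100 for RARα and lower for RARβ and RXRα, and the regions near Cyp26b1, Igfbp2 and Aldh1a1 are near 100 for RXRα and higher under RA for both RARs.

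Genes of liver metabolism were among the nearest protein-coding genes. A gene was counted when a distal six-list region lay within 100 kb of its start with no nearer protein-coding start, which says nothing of which gene a region acts on. Of all protein-coding genes, 1561 of 21887 (7.13%) had such a region. Of 318 genes in lists drawn from general knowledge, 74 had one (23.3%). With every list at 14968 peaks, 16 of the 318 (5.03%) and 297 of the 21887 (1.36%) had one, and with peaks of a score of at least 100 these were 10 (3.14%) and 322 (1.47%). The main shares were 15 of 44 genes of fatty acid and triglyceride metabolism (34.1%), 11 of 33 of glucose and amino acid metabolism (33.3%), 6 of 19 clock genes (31.6%) and 11 of 36 liver transcription factors and RXR partners (30.6%). They were 10 of 43 secreted plasma proteins (23.3%), 7 of 34 genes of cholesterol and bile acids (20.6%), 5 of 27 retinoid genes (18.5%) and 3 of 24 xenobiotic genes (12.5%). Of 25 neuronal genes, taken for comparison, none had one, and 0 of 25 allows a share of up to 12%. Markers of other liver cells had one in 6 of 36 (16.7%), and the part of those cells was not tested. Gene spacing was not matched between the lists and all genes. Where a gene had several regions and 1 is described, it is the one with the highest mean percentile. The median mean percentile of the assigned regions was 65.6 for the listed genes and 65.8 for all genes.

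Among retinoid genes, the region with the largest RARβ score under RA was near Cyp26b1, an RA hydroxylase. At chr6:84640125-84641555, 46.9 kb from its start, the scores in control and RA were 95.1 and 183 for RARα, 111 and 1039.9 for RARβ and 1064 and 1463 for RXRα. All 3 receptors had a higher percentile under RA there. Near Rxra, the gene of RXRα itself, the region at chr2:27624108-27627509 had 379.8 and 977 for RARα, 78.1 and 329 for RARβ and 933 and 919 for RXRα, with a higher percentile under RA for both RARs and not for RXRα. A further region nearer to Rxra, at chr2:27639562-27640444, had 109 and 74.7 for RARα, 70.0 and 87.9 for RARβ and 508 and 545 for RXRα. Near Aldh1a1, a retinal dehydrogenase, the region at chr19:20653972-20654802 had 103 and 155 for RARα, 60.5 and 222 for RARβ and 991 and 1245 for RXRα. Near Tgm2, the RA-induced transglutaminase, the region at chr2:158130122-158131179 had 107 and 145 for RARα, 65.5 and 148 for RARβ and 1228 and 1018 for RXRα. A region at chr2:158135828-158136868 had 63.4 and 75.7 for RARα, 52.9 and 228 for RARβ and 932 and 683 for RXRα. Dhrs3, a retinal reductase, was the other gene of this list with a region.

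Of the transcription factors, Xbp1, which acts in the response to unfolded proteins, had 2 regions, and that at chr11:5485086-5486341 had 401 and 662 for RARα, 95.8 and 234 for RARβ and 326 and 460.4 for RXRα. Cebpb, a C/EBP factor of the acute-phase response, had 2 regions, and that at chr2:167776051-167778346 had 204 and 386 for RARα, 106 and 313 for RARβ and 448 and 504 for RXRα. Each receptor had a higher percentile under RA at both of these. At the other Xbp1 region, chr11:5505575-5507162, RARα rose from the 23.1 to the 52.6 percentile under RA. RARβ fell there from the 73.6 to the 58.9 percentile. Ppara, the fatty acid receptor and partner of RXRα, had 2 regions, and that at chr15:85770430-85772715 had 165 and 58.7 for RARα, 73.7 and 182 for RARβ and 706 and 665 for RXRα. RARα ranked lower and RARβ higher under RA there. Nr2f2, an orphan receptor gene, had a region at chr7:70345885-70346882 with 165 and 240.0 for RARα, 97.3 and 187 for RARβ and 231 and 334 for RXRα. The others with a region were Cebpa, Prox1, Nr5a2, Nr1h4 (FXR), Nr2f1, Nfib and Gata4.

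Plasma protein genes included Apob, the backbone of liver lipoproteins, with 4 regions between 27.3 and 67.2 kb from its start. The nearest, at chr12:7949841-7950830, had 111 and 185 for RARα, 83.7 and 126 for RARβ and 857 and 717 for RXRα. Igfbp2, a binding protein of insulin-like growth factors, had 2 regions. At chr1:72772420-72773943 the scores were 125 and 318 for RARα, 73.2 and 541 for RARβ and 1775 and 1952 for RXRα, and at chr1:72808992-72810942 they were 91.9 and 227 for RARα, 60.7 and 256 for RARβ and 879 and 1032 for RXRα. Every receptor ranked higher under RA at both, RXRα by less than 1 percentile point. Alb, the albumin gene, had a region at chr5:90424194-90425890 with 56.1 and 163 for RARα, 73.2 and 203 for RARβ and 736 and 852 for RXRα and another at chr5:90438910-90439844 with 57.8 and 177 for RARα, 83.8 and 62.6 for RARβ and 1065 and 983 for RXRα. RARα was at the 8.59 and 10.8 percentile under the control diet, while RARβ moved up in the first and down in the second. Igf1 had 2 regions, with RXRα scores of 516 and 586 under control and 663 and 925 under RA.

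In fatty acid metabolism, Scd1, a stearoyl-CoA desaturase, had a region at chr19:44387149-44389462 with 217 and 91.5 for RARα, 102 and 285 for RARβ and 750.2 and 773 for RXRα, and another at chr19:44372820-44373417 with 389 and 432 for RARα, 60.9 and 75.1 for RARβ and 194 and 128 for RXRα. The Scd1 regions thus differed in which receptor ranked high. Acsl1, an acyl-CoA synthetase, had 2 regions, and that at chr8:46384706-46387680 had 72.2 and 198 for RARα, 52.7 and 182 for RARβ and 942 and 1128 for RXRα. Among genes of cholesterol and bile acids, Scarb1, the HDL receptor, had 3 regions and Insig1, an inhibitor of SREBP processing, 2. At chr5:28054362-28056285, near Insig1, the scores were 292 and 268 for RARα, 81.2 and 278 for RARβ and 862 and 991 for RXRα. Abcb11, the bile salt export pump, had a region at chr2:69355273-69355980 that was high in every list, with 825 and 1032 for RARα, 1144 and 929 for RARβ and 773 and 757 for RXRα. All 6 percentiles there were 96.2 or more, as in the regions high in every list.

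In glucose and amino acid metabolism, Fbp1, a gluconeogenic enzyme, had a region at chr13:62907608-62908920 with 272 and 328 for RARα, 148 and 507 for RARβ and 1389 and 1649 for RXRα. Ppp1r3c and Ppp1r3g, glycogen-targeting subunits of protein phosphatase 1, had 2 regions each, and that at chr13:35993749-35994748 had 98.4 and 146 for RARα, 108 and 380.2 for RARβ and 1199.6 and 1379.7 for RXRα. Irs1, an insulin receptor substrate, had 2, with RXRα control scores of 164 and 467. Among clock genes, Hlf, an output factor, had 3 regions, and that at chr11:90354891-90356154 had 107 and 209 for RARα, 95.6 and 265 for RARβ and 806 and 1128 for RXRα. Bhlhe41, a repressor, had 2 regions, and that at chr6:145828614-145830502 had 234 and 342 for RARα, 78.4 and 304 for RARβ and 1850.2 and 1424 for RXRα, and Bhlhe40 one at chr6:108709414-108710511 with 418 and 518 for RARα, 54.5 and 160.2 for RARβ and 554 and 591 for RXRα. Per2 had one at chr1:91441537-91443716 with 125 and 209 for RARα, 167 and 154 for RARβ and 193 and 435 for RXRα. Tef and Nfil3 were the others.

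Of the xenobiotic genes, Cyp2d10, a cytochrome P450, had a region at chr15:82422237-82424149 with 222 and 341 for RARα, 64.5 and 580.2 for RARβ and 1231 and 1213 for RXRα. Ephx1, the microsomal epoxide hydrolase, had one at chr1:181005072-181005990 with 73.0 and 92.9 for RARα, 102 and 181 for RARβ and 1003 and 1079 for RXRα, and Fmo5, a flavin monooxygenase, one at chr3:97595911-97597734 with 94.7 and 111 for RARα, 53.4 and 231 for RARβ and 604 and 362 for RXRα. RARβ ranked higher under RA at each, as it did in 71.0% of all distal six-list regions. Of the markers of other liver cells, Stab2 and Pecam1 mark endothelial cells and Epcam cholangiocytes. Their regions had 150.5 and 106 for RARα, 57.1 and 146 for RARβ and 757 and 397 for RXRα (Stab2), 100.3 and 69.2 for RARα, 67.6 and 145 for RARβ and 916 and 756 for RXRα (Pecam1) and 637 and 785 for RARα, 50.8 and 86.3 for RARβ and 179.9 and 308 for RXRα (Epcam). RARα ranked high and RARβ low at Epcam, and RXRα ranked high at Stab2 and Pecam1.

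Most regions stood alone. When those with midpoints less than 50 kb apart were joined, 1716 had no neighbour, 258 groups held 2, 53 held 3, 12 held 4, 8 held 5 and 3 held 6. Beside the Tex14 group, the groups of 6 lay between Cebpb and Ptpn1 (chr2:167764132-167854068) and near Irf2bp2 (chr8:126613771-126737657). In the former, the region at chr2:167842164-167845642, 86.8 kb from Ptpn1, a phosphatase of insulin signalling, had 106 and 314 for RARα, 59.1 and 337 for RARβ and 599.6 and 1541 for RXRα. In the latter the highest, at chr8:126734360-126737657, had 377 and 353 for RARα, 102 and 548 for RARβ and 1482 and 1881 for RXRα. The Cebpb and Irf2bp2 groups held no annotated small RNA gene and under the control diet RXRα had the highest rank in each of their regions, whereas RARα had it in each region of the Tex14 and Eapp groups. The group between Wdr5 and Rxra (chr2:27539556-27640444) held 5 regions, and RXRα control scores in it ran from 232 to 1497.

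The limit of 10 kb cut a continuous range. Just past it lay regions near Scarb1, Dennd2d and Nol11, with RXRα control scores of 654, 498 and 126 and RARα control scores of 61.3, 109.5 and 94.1. Just within it lay regions near Fam20a, 2900026A02Rik and Czib, with RXRα control scores of 294, 1292 and 422 and RARα control scores of 109.6, 75.5 and 165. At the limit of 3100, the highest score among regions kept was 3099, and the next in another region was 2989.9.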

How the data were processed

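Livers of control and RA-fed mice were profiled by ChIP-seq for RARα, RARβ and RXRα, with 1 library per receptor and diet. Reads were aligned to mm10 with Bowtie and peaks called per library with MACS by the authors, and the labels also name CASAVA 1.4. The deposited files give each peak's position and the caller's score, which was not normalized between libraries and begins at 50. The input library has no file in this work and was not used here. Read depth per library is unknown.

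Peaks were merged, annotated and ranked with Python 3.11.15, pandas 2.3.3, numpy 2.4.6 and scipy 1.17.1, and the merging was tested on simulated data. The simulated regions lay apart and their peaks overlapped, with at most 1 peak per list, so chained and touching peaks were not tested. Starts of 21887 protein-coding genes came from the RefSeq table of GRCm38.p6, with the strand from the RefSeq promoter table for 17492, from GENCODE M1 for 4044 and unknown for 351, for which both ends were used (32918 starts). A lncRNA start was counted within 1 kb of a midpoint, with both ends used for the 2767 of 12727 lncRNA genes of unknown strand. Each region was assigned to the nearest protein-coding start within 100 kb. Motifs were searched only in RefSeq promoter windows of lncRNAs lying inside regions, because no genome sequence of the build was used here. This replaced the motif search over all regions that had been planned.

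The regions, gene lists and comparisons were chosen with earlier results of these data known. Regions named are the 12 with the highest mean percentile, those with the 3 largest rises and falls of RARβ rank and the largest of RARα and RXRα, those of up to 4 genes per list with most regions, those in the 5 largest groups, those farthest from a start or at the limits of the rule, and those with snRNA, snoRNA or named lncRNA genes. The named lncRNAs and the small RNA genes were added after their values were seen. No test was run over samples. Some results are not reported here.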

Additional observations from a re-analysis of the deposited data

How the results depend on the processing

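Over the main values and their alternatives, 120 alternatives were rated as unchanged and 53 as moved. A share was rated unchanged when it lay within counting error of the main share. Counts of regions and of listed genes had a wider limit, which was not counting error. Under it, 1682 regions (starts of all annotated genes) and 3108 (without the RARα control list) were rated unchanged against 2497. So were 52 listed genes (limit of 20 kb) against 74. The number of distal six-list regions was 490 with peaks of a score of at least 100, 427 with every list at the length of the shortest, and 2528 to 6044 with 1 list left out, the highest without the RARβ control list. The distal share was 34.5% with a limit of 5 kb, 22.0% with 20 kb, 19.7% with starts of all annotated genes, 31.7% with outermost starts only, 18.6% at a score of at least 100, 33.2% at equal length and 28.1 to 41.9% with 1 list left out. A common base was held by 95.7%, 93.4% and 92.4 to 93.9% under the last 3 of these settings, and by 100% with an overlap of at least 25% by construction. The share with both RXRα ranks above all RAR ranks was 60.8% with all starts, 56.1% with outermost starts, 24.7% at a score of at least 100 and 29.7% at equal length. With 1 list left out it was 60.8 to 65.2%. There this share and that with a common base cover the remaining lists only, so fewer lists had to meet the condition. The share inside genes was 38.6% with 20 kb, 49.3% with all starts, 46.3% with outermost starts, 33.9% at a score of at least 100, 33.3% at equal length and 41.7 to 45.4% with 1 list left out. Listed genes with a region numbered 10 at a score of at least 100, 16 at equal length and 73 to 119 with 1 list left out. With all starts the lncRNA and small RNA shares were 0 by construction. At a score of at least 100 they were 11.0% and 6.12%, and with 1 list left out 5.87 to 7.59% and 1.08 to 2.29%. Ranks higher under RA were 72.2% for RARα and 64.5% for RARβ at a score of at least 100, 61.8% and 53.6% at equal length, and 68.7 to 69.7% and 69.9 to 71.3% with 1 list left out, and 50.5 to 53.5% for RXRα under all settings run. GGGCGG was found in 26.98 to 57.8% of lncRNA windows.

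Leaving out each list, outermost starts, the fixed window of 500 bp leaving out regions high in every list, and leaving out small RNA genes from the lncRNA share were added after seeing the data. The planned share of regions with a motif was not run for lack of a genome sequence, and no windows were left with starts of all genes. No paired analysis was possible because each receptor and diet has 1 library. Depth is unknown, so a region missing from a short list is not shown to be unbound.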
